A study of Mus musculus with 19 samples.

Results

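The genes described here are the nuclear genes whose symbols name subunits of the oxidative phosphorylation machinery of mitochondria. They were chosen by symbol and transcript type alone: every row with a RefSeq transcript of the NM type (a curated messenger RNA) and a symbol beginning with Nduf and a subunit letter, Sdh, Uqcr, Cox4 to Cox8, or Atp5. The rule took 83 of the 24537 genes measured. By symbol, 36 were named for complex I, 4 for complex II, 8 for complex III, 18 for complex IV and 17 for complex V. Ndufs6, which fits by symbol, was left out because its transcript in the table is of the non-coding type.

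Messenger RNA was sequenced from hepatocytes, the metabolic parenchymal cells of the liver, which had been freed from the organ by perfusion in consecutive steps. All mice were wild-type C57BL/6J males, and each library came from 1 mouse per the labels. The young group held 10 mice aged 5 months (140 or 163 days) and the old group 9 mice aged 24 months (719 or 742 days). Mice were killed on 2 cull days that lay 23 days apart, with 5 young and 5 old mice on the first and 5 young and 4 old mice on the second. Mice of the second day were thus also older within their age group, and the day cannot be told apart from those added days of life or from any other step that went with it.

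Counts over genes totalled between 17381439 and 20287628.5 per library. The share of counts in the 83 genes was 1.10% ± 0.161 for the young group (SD, n = 10). It was 0.960% ± 0.0829 for the old group (SD, n = 9). Hepatocyte markers were high in every library, with a summed level of 93797 to 157752 CPM in young and 119933 to 199401 CPM in old mice. Of these 9 markers, 4 were lower and 2 higher in old mice, with a median log2 difference of -0.25, and their part in the subunit levels was not tested. CPM here are counts on a per-library scale, after adjusting library sizes by the trimmed mean of M-values (TMM). Transcripts of other liver cells moved with age: 12 of 12 stellate cell markers, 13 of 14 macrophage markers and 8 of 12 endothelial markers were higher in old mice. Young mice 1184, 1186 and 1188, all killed on the first day, stood apart by 5 acute-phase genes (Saa1, Saa2, Orm2, Lcn2 and Hp), whose mean log2 CPM was 10.5 to 12.0 there and 4.10 to 4.88 in the other young mice. Old mice lay between, at 5.09 to 9.08, all above those other young mice, with 1187 and 1236 highest at 8.94 and 9.08. The part of this signal in the age differences was not tested. Results are also given without the 3 young mice.

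Oxidative phosphorylation passes electrons from NADH and succinate along the inner mitochondrial membrane to oxygen and uses the resulting proton gradient to make ATP. Complexes I and II feed electrons to coenzyme Q, complex III hands them to cytochrome c, complex IV reduces oxygen, and complex V, the ATP synthase, lets protons flow back. Most subunits are encoded in the nucleus and imported, while a core set is encoded in mitochondrial DNA, which the table did not cover. Hepatocytes are rich in mitochondria and use the ATP for gluconeogenesis, urea synthesis and lipid metabolism.

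As a set, the genes had high levels per kilobase of transcript. The median over the 77 genes that passed the filter on low counts was 117 CPM per kb, against 4.67 over all 12269 genes tested. Their transcripts were also shorter, with a median of 737 against 2816 bases. Ndufa4l2, Cox7a1 and Atp5s lay below the median of all genes, at 0.731, 3.64 and 2.18 CPM per kb. Atp5b, the catalytic beta subunit of ATP synthase, had the highest mean level of the subunit genes at 609 CPM per kb. Cox4i1, the ubiquitous form of complex IV subunit 4, followed at 512 CPM per kb, and Ndufa4 at 511. Ndufa4 carries a complex I symbol, although its protein is now assigned to complex IV. Median levels by complex were 80.3 CPM per kb for complex I, 132 for complex II, 150 for complex III, 204 for complex IV and 174 for complex V.

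The 6 genes that did not pass the filter were all tissue-restricted forms of complex IV subunits. Cox8c and Cox7b2 had no count in any library. Cox8b reached 1 count at most, Cox6b2 reached 2 counts and Cox6a2 reached 5 counts. Cox4i2 had 0 or 1 count in all libraries but old mouse 1187, which had 9. The common forms of the same subunits, Cox4i1, Cox6a1, Cox6b1, Cox7b and Cox8a, all passed the filter.

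The first question was how the subunit genes differed between old and young mice. A lower level in old mice was the prevailing pattern, small in size: 22 of the 77 genes tested were lower and 1, Cox7a1, was higher (edgeR quasi-likelihood test with cull day as a covariate, adjusted p under 0.05). Over all genes tested, 14.5% were lower and 16.3% higher (30.9% called in all), against 28.6% lower and 1.30% higher among the subunit genes. The log2 difference was negative for 74 of the 77, against 50.4% of all genes, and its median was -0.18 against -0.0034. The exceptions were Cox7a1, Ndufa4l2 and Ndufa7, of which the last 2 did not pass the test, at log2 differences of 0.16 and 0.014. The 22 genes fell by 12.6% to 21.9%, with a median of 16.7%. In none of the 77 did all old mice lie below all young mice, which held for 0.725% of all genes, and in none did all old mice lie above them (0.994% of all genes). In such bulk libraries, fewer cells of a type and less RNA per cell cannot be told apart.

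**Figure D1:**
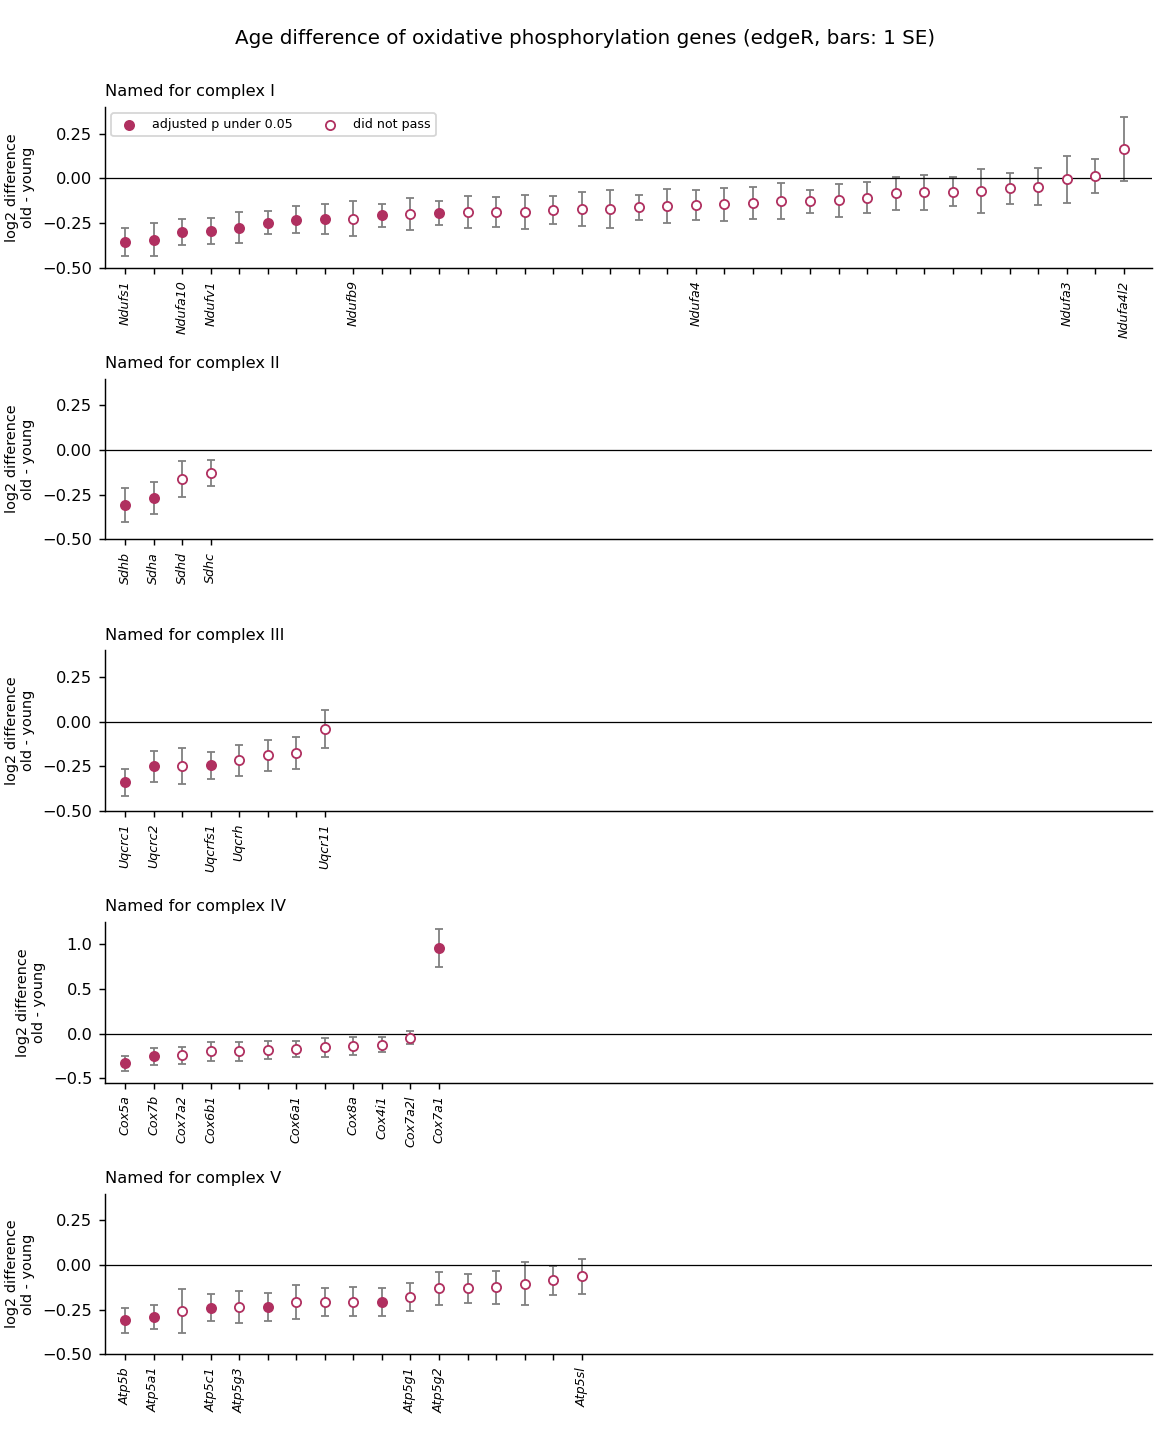
Log2 difference between old and young mice (vertical axis) for each of the 77 genes tested, one panel per complex, with bars of 1 SE; filled points passed an adjusted p of 0.05. Symbols are given for the genes named by rule. The complex IV panel has a wider vertical range. Nearly all points lie below 0, and Cox7a1 is the highest at 0.96.

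Complex I oxidises NADH. Of its 36 genes, 10 were lower in old mice (27.8%, against 14.5% of all genes), none was higher, and the median log2 difference was -0.17. Without old mouse 1238, 6 were lower (16.7%, against 13.2% of all genes in that fit). Among the 7 genes of its catalytic core, which carries the flavin and the iron-sulfur clusters, 5 were lower, among them Ndufs1, Ndufv1 and Ndufv2. Among the other 29 genes, 5 were lower, a share near the 14.5% of all genes: Ndufa8, Ndufa10, Ndufb3, Ndufb4 and Ndufc1. The core genes are also the longer ones, with a median transcript length of 1596 bases against 634, so their reads are more numerous at a given level per kb. The part of length in these counts of lower genes was not tested.

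Ndufs1 (chromosome 1, 63143592 to 63176822), the large iron-sulfur subunit, had 86.0 CPM in the lowest, 111 in the median and 124 in the highest young mouse, and 65.6, 87.0 and 97.0 CPM in old mice. Only young mouse 1186 lay within the old range, and 4 of 9 old mice lay below every young mouse. The log2 difference was -0.36 (SE 0.0784, edgeR adjusted p = 0.00311), the largest fall among the subunit genes in this fit. On the second day alone the largest fall was in complex III, at -0.47, against -0.42 in complex I. Ndufv1, which binds NADH, went from 118, 144 and 167 CPM to 92.1, 121 and 124 CPM, and 4 of 9 old mice lay below all young mice (log2 difference -0.29, edgeR adjusted p = 0.00583). Ndufa10, an accessory subunit, went from 84.2, 108 and 122 CPM to 68.1, 86.2 and 91.7 CPM, and 3 of 9 old mice lay below all young mice (log2 difference -0.30, edgeR adjusted p = 0.00454).

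Other genes of complex I did not pass the test, Ndufa3 and Ndufa4 among them. Ndufa3, a small accessory subunit, had 33.3, 44.9 and 80.2 CPM in young and 34.5, 47.8 and 73.7 CPM in old mice. The ranges overlapped almost completely, and the log2 difference was -0.0051 (SE 0.132, edgeR adjusted p = 0.98), a sign that several other settings turned. Ndufa4 was at 184, 272 and 357 CPM in young and 183, 239 and 287 CPM in old mice, with wide overlap (edgeR adjusted p = 0.19). Its low-level relative Ndufa4l2, known as a hypoxia-responsive form, had 8 to 17 counts in young and 10 to 19 in old libraries.

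Complex II, succinate dehydrogenase, is also an enzyme of the citric acid cycle. Both genes of its catalytic head fell. Sdhb, the iron-sulfur subunit, had 115, 167 and 215 CPM in young mice (lowest, median, highest) and 106, 129 and 170 CPM in old mice, with wide overlap (log2 difference -0.31, SE 0.0933, edgeR adjusted p = 0.0186). Sdha, the flavoprotein, went from 403, 548 and 618 CPM to 335, 428 and 525 CPM, with 1 old mouse, 1187, below all young mice (log2 difference -0.27, SE 0.0879, edgeR adjusted p = 0.0265). Sdha missed the threshold without young mouse 1180 or old mouse 1238 (edgeR adjusted p up to 0.0558). The membrane anchors Sdhc and Sdhd did not pass the test, at log2 differences of -0.13 and -0.16 (edgeR adjusted p = 0.188 and 0.238).

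Complex III hands electrons from coenzyme Q to cytochrome c. All 8 of its genes had a negative difference, with a median of -0.23. Of these, 3 were lower (37.5%, against 14.5% of all genes): Uqcrc1, Uqcrc2 and Uqcrfs1. Without old mouse 1238, 1 was lower (12.5%, against 13.2% of all genes in that fit). Uqcrc1, a core subunit (chromosome 9, 108936648 to 108949641), had 165, 214 and 232 CPM in young and 138, 168 and 179 CPM in old mice. The old range reached only the lowest young mice, and 4 of 9 old mice lay below all young mice (log2 difference -0.34, SE 0.0751, edgeR adjusted p = 0.00327). Uqcrfs1, the Rieske iron-sulfur protein, differed by -0.24 and Uqcrc2, the other core subunit, by -0.25 (edgeR adjusted p = 0.0208 and 0.038). Uqcrfs1 missed the threshold without old mouse 1238 (edgeR adjusted p = 0.0516). Uqcrc2 missed it in 9 of 19 fits with 1 mouse left out (edgeR adjusted p up to 0.0807). The smallest subunit gene, Uqcr11, was level at medians of 96.5 and 97.1 CPM (edgeR adjusted p = 0.793).

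Complex IV, cytochrome c oxidase, reduces oxygen to water. Of its 12 genes tested, 2 were lower (16.7%, near the 14.5% of all genes) and 1 was higher, and the median log2 difference was -0.18. Cox5a (chromosome 9, 57521232 to 57532426), a subunit on the matrix side, had 103, 137 and 174 CPM in young and 95.2, 102 and 127 CPM in old mice. Of the 9 old mice, 6 lay below all young mice (log2 difference -0.34, SE 0.0856, edgeR adjusted p = 0.00765). Cox7b was the other gene that fell, by 0.26 on the log2 scale (edgeR adjusted p = 0.0468), and it missed the threshold in 12 of 19 fits with 1 mouse left out (edgeR adjusted p up to 0.0967). Cox4i1 had 305, 401 and 511 CPM in young and 295, 349 and 413 CPM in old mice and did not pass the test (edgeR adjusted p = 0.282). Cox7a2l, an assembly factor of respiratory supercomplexes, differed by -0.045 (edgeR adjusted p = 0.681).

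Complex V makes ATP in its F1 head, driven by a rotor in the membrane that turns as protons pass. All 17 genes had a negative difference, with a median of -0.21, and 5 were lower (29.4%, against 14.5% of all genes). Of the 5 F1 genes these were Atp5a1, Atp5b and Atp5c1. Of the other 12 they were Atp5f1 and Atp5l, a share near that of all genes. Without old mouse 1238, 2 of the 17 were lower (11.8%, against 13.2% of all genes in that fit). Atp5c1 missed the threshold in that fit (edgeR adjusted p = 0.0590). Atp5l missed it in 3 and Atp5f1 in 14 of 19 fits with 1 mouse left out (edgeR adjusted p up to 0.0676 and 0.106). Atp5b (chromosome 10, 128083307 to 128090388) is shown mouse by mouse. Young mice of the first day had 1333, 1343, 1131, 1057 and 1205 CPM, and those of the second day 1257, 1245, 1294, 1356 and 1290 CPM. Old mice of the first day had 1059, 1050, 1096, 815 and 1099 CPM, and those of the second day 1069, 941, 941 and 1007 CPM. The groups met only at young mouse 1186 (1057 CPM): 5 of 9 old mice lay below all young mice. The log2 difference was -0.31 (SE 0.0705, edgeR adjusted p = 0.00394).

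Atp5a1, the alpha subunit, moved alongside, from 830, 990 and 1059 CPM to 631, 809 and 866 CPM, with 6 of 9 old mice below all young mice (log2 difference -0.29, SE 0.0693, edgeR adjusted p = 0.00501). The rotor ring subunit is encoded by Atp5g1, Atp5g2 and Atp5g3, and none passed the test. Atp5g3 came nearest at -0.23 (edgeR adjusted p = 0.0558). Atp5s and Atp5sl carry ATP synthase symbols but are not classical subunits. They were the lowest of the complex V genes at 2.18 and 9.67 CPM per kb and did not pass the test.

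**Figure D2:**
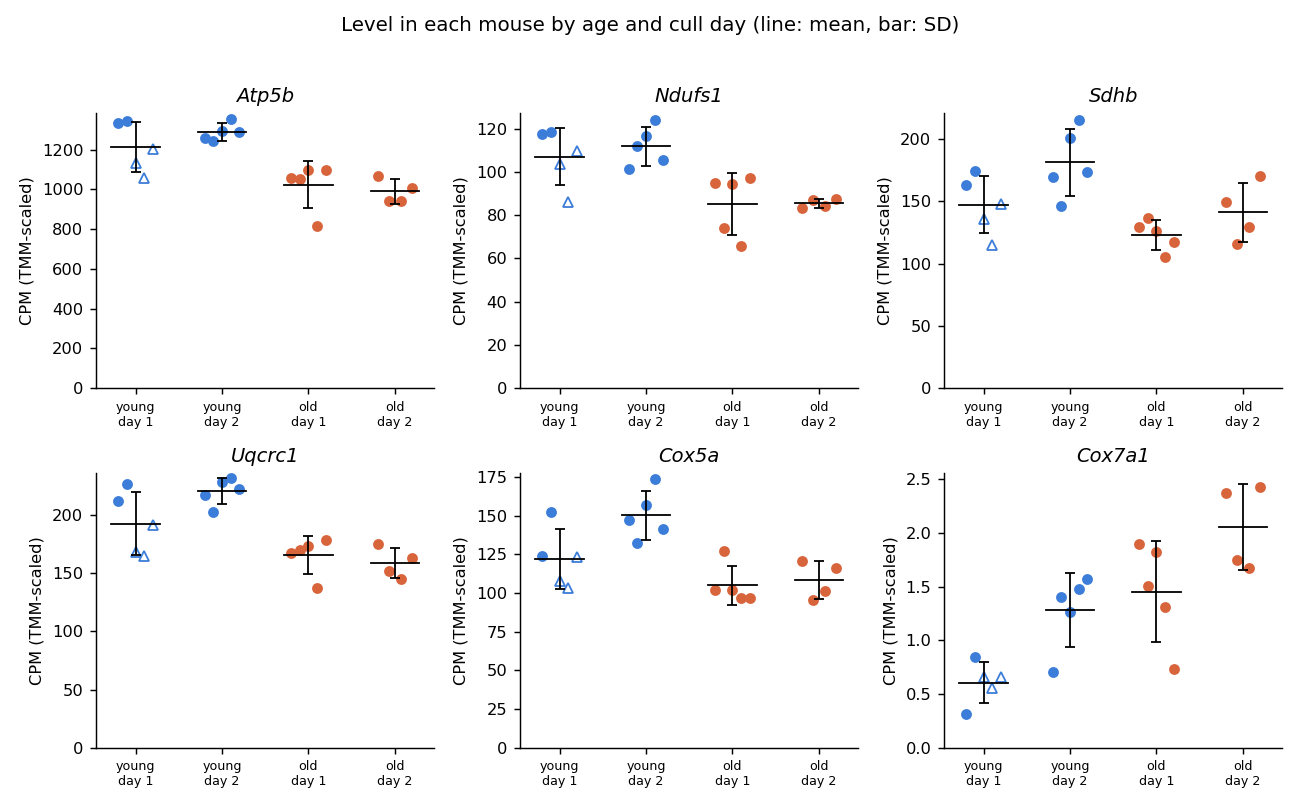
TMM-scaled CPM of 6 genes in each mouse, grouped by age and cull day, from 0; lines are means, bars SD, and open triangles are young mice 1184, 1186 and 1188. Atp5b, Ndufs1, Sdhb, Uqcrc1 and Cox5a lie lower in old mice on both days, and Cox7a1 lies higher.

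Cox7a1 (chromosome 7, 30184171 to 30186030) was the exception. It encodes the form of subunit 7a known from heart, skeletal muscle and brown fat, whereas Cox7a2 is the form of most tissues. Young mice of the first day had 0.316, 0.842, 0.656, 0.558 and 0.658 CPM, and those of the second day 0.700, 1.40, 1.27, 1.47 and 1.57 CPM. Old mice had 1.90, 1.51, 1.82, 1.31 and 0.730 CPM on the first day and 2.37, 1.75, 1.67 and 2.43 CPM on the second. Thus 6 of 9 old mice exceeded every young mouse, and the other 3 (1183, 1187 and 1189) lay within the young range. These levels rest on 6 to 32 counts in young and 14 to 46 in old libraries. The log2 difference was 0.96 (SE 0.210, edgeR adjusted p = 0.00301), and it was 1.01 with the other-cell score described below as a covariate (edgeR adjusted p = 0.02).

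Relative to Cox7a2 and per length, Cox7a1 made up 1.92% of the pair in young and 4.28% in old mice. The log2 ratio was higher in old mice by 1.20 (exact two-sided permutation test within cull days, p = 0.000252, adjusted over 4 pairs 0.00101). Within the first day the ratio differed by 1.36 and within the second by 1.04, and neither passed after adjustment (exact permutation, adjusted p = 0.0952 and 0.0635). The pairs Ndufa4l2 with Ndufa4, Atp5g1 with Atp5g3 and Atp5g2 with Atp5g3 differed by 0.33, 0.049 and 0.11 and did not pass (exact permutation, adjusted p = 0.173, 0.506 and 0.173). Markers of striated muscle summed to 0 to 3.69 CPM in young and 0.194 to 0.974 CPM in old mice, and none passed the filter on low counts. Of the adipocyte markers, 1 was tested and did not pass. Markers of mural and smooth muscle cells rose from a summed 11.1 to 33.4 CPM in young to 23.8 to 77.4 CPM in old mice, with 3 of 4 tested higher; their part in the Cox7a1 difference was not tested.

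The age comparison was repeated within each cull day, without certain mice and with a score of other cells. On the first day alone none of the 77 genes passed (edgeR; 3 at an unadjusted p under 0.05, namely Ndufs1, Ndufv2 and Cox7a1, against 26.6% of all genes), with a median log2 difference of -0.095 and 3.67% of all genes called. On the second day alone 19 genes were lower and none higher, with a median of -0.28, against 7.15% of all genes lower. All 22 genes called over both days had a negative difference on the first day, and 13 of them were among the 19. The difference between days was tested by an interaction term, which no subunit gene passed in edgeR or DESeq2, as did 0.0% of all genes in edgeR and 0.0815% in DESeq2. At an unadjusted p under 0.05 it held 3 genes (Ndufa1, Ndufs5 and Cox6a1), against 6.51% of all genes. The difference between days was negative, that is, the old-minus-young difference was lower on the second day, for 75 of the 77 genes, against 55.8% of all genes. Its median was -0.20, against -0.034 over all genes. In limma-voom Cox6a1 passed (log2 difference of -0.52 between days, adjusted p = 0.0374), with 2.84% of all genes called. There 31 of the 77 had an unadjusted p under 0.05, all negative, against 21.9% of all genes.

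Without young mice 1184, 1186 and 1188, 41 of the 77 genes were lower in old mice, 21 of the 22 among them, with a median log2 difference of -0.27 (12.5% of all genes lower). These 3 mice had a mean log2 level over the subunit genes of 6.05 to 6.25, within the 6.00 to 6.54 of old mice, while the other young mice had 6.33 to 6.85. Leaving out old mouse 1238 took the count of lower genes from 22 to 11, which is 14.3% of the 77, near the 13.2% of all genes lower in the same fit. The median log2 difference was then -0.14, with 72 of the 77 negative. When each of the 19 mice was left out in turn, 11 of the 22 genes and Cox7a1 passed every time. Atp5f1 missed the threshold in 14 of the 19 fits and Ndufa8 in 10 (edgeR adjusted p up to 0.106 and 0.0863). Scaling by library totals alone also gave 11, with 9.53% of all genes lower.

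The other-cell score, the mean log2 CPM of 39 marker genes of other liver cells, was 2.27 to 3.87 in young and 2.57 to 5.70 in old mice. With this score as a covariate no subunit gene was lower in old mice, against 5.93% of all genes, and the median log2 difference shrank from -0.18 to -0.032. Cox7a1, which was higher, was the only subunit gene that still passed the test. The score and age moved together across mice, and the part of other cells in the lower subunit levels cannot be told apart from age by this fit. Old mouse 1187, which had the highest score (5.70), also had the lowest mean log2 level of the subunit genes (6.00). Old mouse 1242, which had the next highest score (4.59), had the highest mean level of the old mice (6.54).

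**Figure D3:**
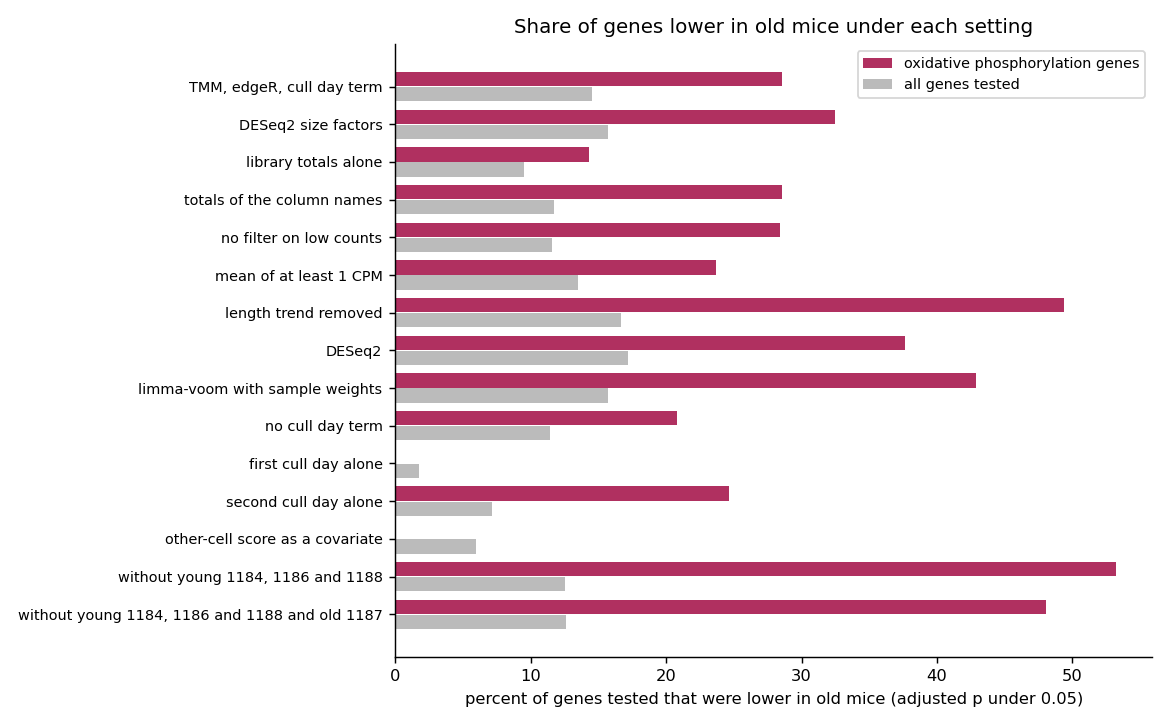
Percent of genes tested that were lower in old mice (horizontal axis, from 0) under each setting, for the oxidative phosphorylation genes and for all genes tested. The share of subunit genes is 28.6% in the first row, 53.2% without the 3 young mice, and 0 on the first cull day alone and with the other-cell covariate.

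The second comparison was between cull days. Subunit genes were higher on the second day: 42 of 77 passed and none was lower (edgeR, age as a covariate), against 5.72% of all genes higher and 6.55% lower (12.3% called in all). The median log2 difference was 0.28, against -0.030 over all genes. It was positive for 76 of the 77, all but Atp5s, while 54.7% of all genes were negative, and 54 had an unadjusted p under 0.05 against 30.0% of all genes. By complex, 21 of 36 complex I genes, 5 of 8 of complex III, 8 of 12 of complex IV and 8 of 17 of complex V were higher, and none of the 4 of complex II. Cox7a1 rose most, by 0.78 on the log2 scale (edgeR adjusted p = 0.026). Next came the small subunits Ndufa6 and Atp5e at 0.62 each and Atp5k at 0.59 (edgeR adjusted p = 0.00971, 0.00644 and 0.0104). Of the genes lower in old mice, Atp5b, Ndufs1 and Uqcrc1 did not pass between days: Atp5b differed by 0.023, Ndufs1 by 0.037 and Uqcrc1 by 0.075 (edgeR adjusted p = 0.847, 0.781 and 0.522).

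Fewer genes passed in fits on part of the mice. Without young mice 1184, 1186 and 1188 none of the 77 genes passed between days in edgeR, as did 0.0% of all genes (39 subunit genes at an unadjusted p under 0.05, against 2474 of all 12354 genes tested), and the median was 0.20 with 68 of 77 positive. Within old mice alone none passed either, again with 0.0% of all genes (24 at an unadjusted p under 0.05, against 9.53% of all genes), and the median was 0.20 with 68 of 77 positive. Within young mice alone 5 passed, namely Atp5j, Atp5j2, Ndufa1, Ndufs5 and Uqcrh, with 0.677% of all genes higher and a median of 0.37.

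**Figure D4:**
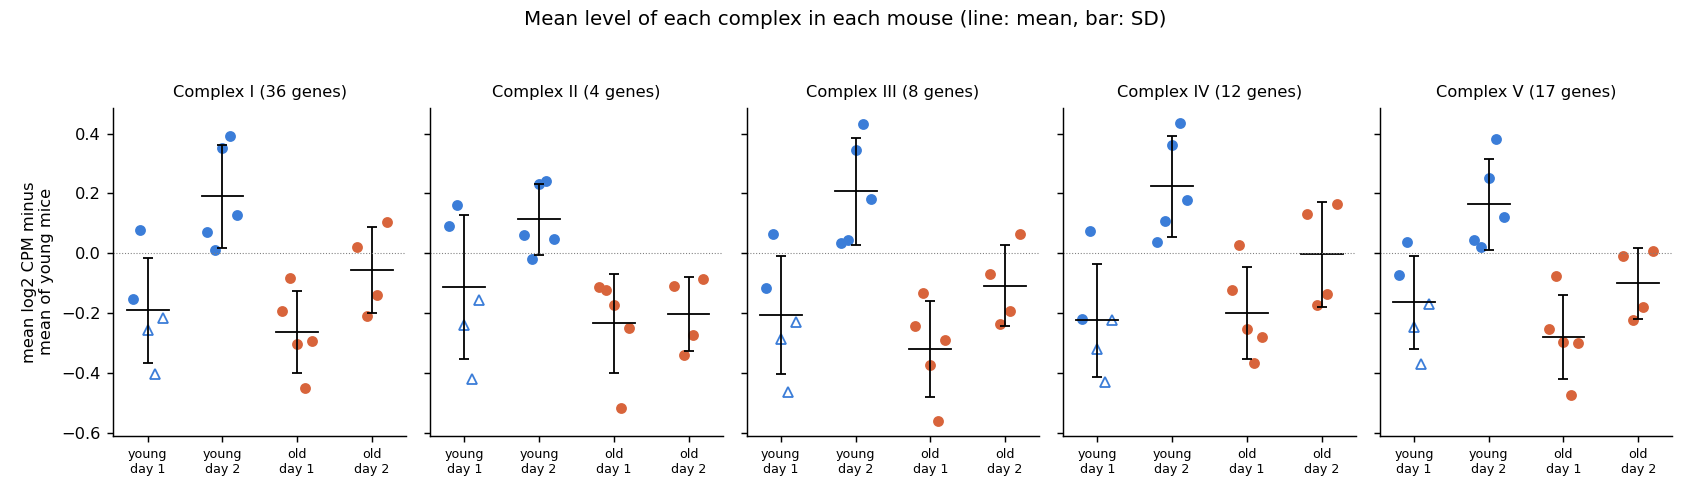
Mean log2 CPM of each complex in each mouse minus the mean of young mice (vertical axis), by age and cull day; lines are means, bars SD, and open triangles are young mice 1184, 1186 and 1188. The highest value in every panel belongs to a young mouse of the second day, and the 3 open triangles lie within the range of old mice of the first day, except that 1 of them lies below it in complex IV.

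The cull-day difference went with transcript length. Across the 77 genes, which share libraries, the Spearman correlation of the day difference with length was -0.634, and across all 12269 genes it was -0.488. Of the genes under 1000 bases, 35 of 51 were higher on the second day, against 7 of 26 of the longer ones. In each library the level was also regressed on length: per doubling of length the log2 level changed by 0.056 on average in libraries of the first day (-0.050 to 0.145) and by -0.062 in those of the second (-0.167 to 0.014), relative to the mean library. When a smooth length trend was removed from each library, 3 genes were higher on the second day (Atp5e, Cox7b and Ndufv3), with 0.644% of all genes higher, and the median difference was 0.056. Young and old mice had about the same slopes, at -0.0022 and 0.0024, and after removal of the trend 38 subunit genes were lower in old mice, all 22 among them, with 16.6% of all genes lower.

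**Figure D5:**
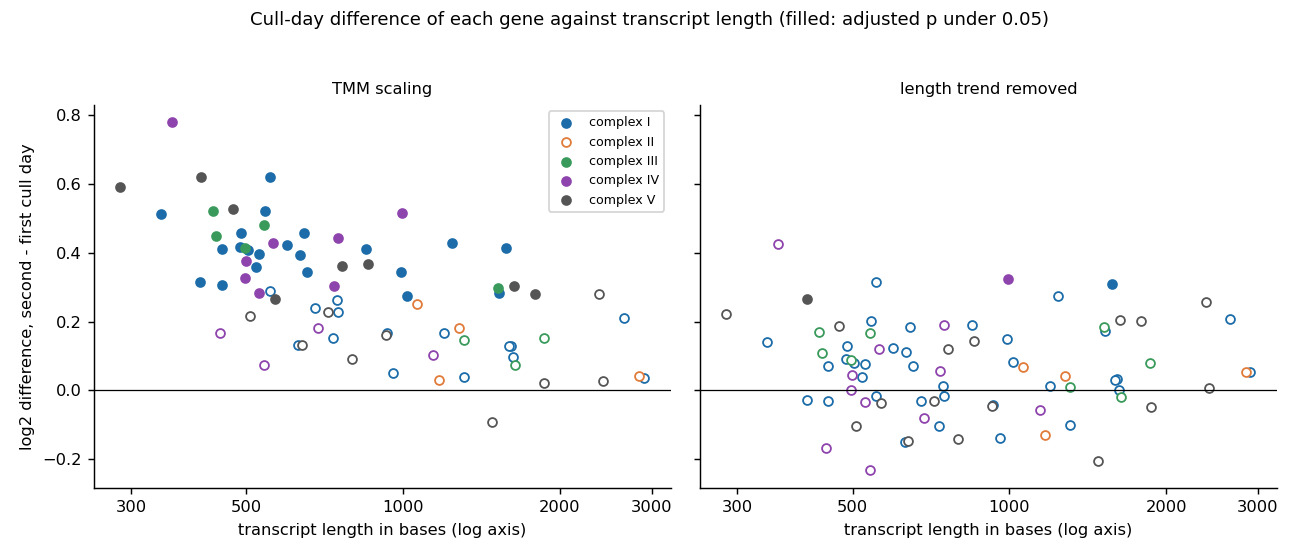
Log2 difference between the second and first cull day (vertical axis) of each gene tested against its transcript length in bases (log axis), with TMM scaling (left) and after removal of each library's length trend (right). Filled points passed an adjusted p of 0.05: 42 on the left, mostly under 1000 bases, and 3 on the right.

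Other genes of the pathway were also compared between old and young mice. Among 190 genes tested in 10 lists (assembly factors, electron carriers, coenzyme Q synthesis, mitochondrial gene expression, the citric acid cycle and the mitochondrial ribosome), 68 were lower and 2 higher (edgeR), against 14.5% and 16.3% of all genes. With the other-cell covariate 17 of the 190 were lower and none higher, against 5.93% and 6.01% of all genes. These were 5 of 78 mitochondrial ribosomal proteins, 4 of 19 citric acid cycle genes and 1 of 13 for coenzyme Q synthesis. The rest were 4 of 23 assembly factors of complex IV and 3 of 15 of complex I, and the other lists had none.

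Assembly factors build the complexes without being part of them. Of those for complex I, 7 of 15 were lower, among them Ecsit, Ndufaf1 and Ndufaf4 (log2 difference -0.40, -0.35 and -0.59). For complex IV 8 of 23 were lower, among them Lrpprc, which stabilises mitochondrial messenger RNA, Taco1, which activates translation of a catalytic subunit, and Cox15, which makes heme A (-0.45, -0.45 and -0.34). For complexes II, III and V the counts were 1 of 4 (Sdhaf2), 2 of 6 (Lyrm7 and Bcs1l) and 2 of 3 (Atpaf2 and Tmem70). Sdhaf2 missed the threshold in 15 of 19 fits with 1 mouse left out (edgeR adjusted p up to 0.0867). Lrpprc, for example, had 82.7, 99.9 and 117 CPM in young and 58.3, 72.4 and 83.4 CPM in old mice (lowest, median, highest), so the groups overlapped only at their edges.

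Of the electron carriers and the subunits with other symbols, 5 of 9 were lower, including Cycs, which is cytochrome c (-0.37), and Cyc1, the cytochrome c1 of complex III (-0.30). Atpif1, the inhibitor that keeps ATP synthase from running backwards, was higher by 0.28 (SE 0.0949, edgeR adjusted p = 0.0324). It had 7.16, 8.92 and 12.4 CPM in young and 8.50, 11.4 and 13.9 CPM in old mice, with overlap, and it did not pass without the 3 young mice named above (edgeR adjusted p = 0.105). In coenzyme Q synthesis 4 of 13 were lower, with Coq10b, a coenzyme Q binding protein, at the largest log2 difference of the lists, -0.97 (edgeR).

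In the citric acid cycle list 10 of 19 were lower, among them Pdhx of the pyruvate dehydrogenase complex, Dlst of the oxoglutarate dehydrogenase complex and Idh3a of isocitrate dehydrogenase (-0.52, -0.43 and -0.47). Among the mitochondrial ribosomal proteins 26 of 78 were lower and none higher, for example Mrps31 and Mrpl38 (-0.42 and -0.39). Of the genes for mitochondrial biogenesis and mitochondrial DNA expression, 3 of 20 were lower (Tfb2m, Polg and Yy1), a share near the 14.5% of all genes, and 1 was higher (Mterf1a, 0.55, edgeR adjusted p = 0.0429). Yy1 missed the threshold in 12 of 19 fits with 1 mouse left out (edgeR adjusted p up to 0.0809). The regulators Ppargc1a, Nrf1 and Tfam, picked here by their known role, did not pass, at log2 differences of -0.30, 0.041 and 0.0056.

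The promoters of these genes are a textbook target of NRF1, a transcription factor that binds a GC-rich palindrome. The 250 bases before the RefSeq transcription start (build GRCm38.p6) were found for 65 of the 83 genes and 62 of the 77 tested. Its letters, GCGCA and GCGC parted by any 1 base, were searched on both strands and occurred in 11 of the 62 (17.7%), against 3.74% of all 32851 promoters of that length. The sets are unlike: each of the 62 genes had 1 promoter, while the 32851 were not limited to 1 per gene or to genes tested. They occurred in 3 of 17 genes that were lower in old mice (17.6%) and in 8 of 45 that were not (17.8%). The GC box GGGCGG was in 8 of the 17 (47.1%) and in 12 of the 45 (26.7%), a difference that was not tested, and in 32.3% of the 62 against 32.7% of all promoters. The ETS letters CCGGAAGT were in 4.84% against 2.88% of all promoters. The YY1 letters AANATGGCG were in 1.61% against 1.12%, and the letters TCAAGGTCA of the estrogen-related receptor in 1.61% against 0.387%. A match describes the letters and is not a binding site shown here.

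The sequences below are the promoters of the 3 lower genes with the NRF1 letters. For contrast they are followed by Atp5b, the most abundant of the subunit genes, and Cox7a1, the gene that rose. They run 5′ to 3′ on the gene's strand and end at the base before the transcription start, and capitals mark matches to the NRF1 letters or the GC box. Ndufa8 lies at chr2:36049339-36049588 on the minus strand, Ndufb4 at chr16:37654369-37654618 on the minus strand and Sdha at chr13:74350241-74350490 on the minus strand. Atp5b lies at chr10:128083057-128083306 and Cox7a1 at chr7:30183921-30184170, both on the plus strand.
Ndufa8: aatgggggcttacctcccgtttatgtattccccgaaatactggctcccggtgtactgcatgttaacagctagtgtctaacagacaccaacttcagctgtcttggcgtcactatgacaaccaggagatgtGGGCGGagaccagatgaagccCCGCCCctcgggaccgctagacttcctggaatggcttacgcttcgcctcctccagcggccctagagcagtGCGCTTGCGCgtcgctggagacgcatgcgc
Ndufb4: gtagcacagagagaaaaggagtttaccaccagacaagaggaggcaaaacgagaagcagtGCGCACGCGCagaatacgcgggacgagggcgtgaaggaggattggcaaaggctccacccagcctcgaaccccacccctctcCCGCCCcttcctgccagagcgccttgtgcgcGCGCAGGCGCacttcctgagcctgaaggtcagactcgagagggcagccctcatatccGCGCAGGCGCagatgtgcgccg
Sdha: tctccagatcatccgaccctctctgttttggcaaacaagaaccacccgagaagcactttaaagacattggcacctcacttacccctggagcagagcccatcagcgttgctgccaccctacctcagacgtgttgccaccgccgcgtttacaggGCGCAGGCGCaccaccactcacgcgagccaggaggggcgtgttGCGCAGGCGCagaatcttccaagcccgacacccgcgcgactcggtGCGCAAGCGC
Atp5b: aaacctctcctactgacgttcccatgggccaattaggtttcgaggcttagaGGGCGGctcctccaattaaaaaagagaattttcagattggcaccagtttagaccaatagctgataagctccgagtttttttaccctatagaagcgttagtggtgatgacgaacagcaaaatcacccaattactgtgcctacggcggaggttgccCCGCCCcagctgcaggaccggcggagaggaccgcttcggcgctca
Cox7a1: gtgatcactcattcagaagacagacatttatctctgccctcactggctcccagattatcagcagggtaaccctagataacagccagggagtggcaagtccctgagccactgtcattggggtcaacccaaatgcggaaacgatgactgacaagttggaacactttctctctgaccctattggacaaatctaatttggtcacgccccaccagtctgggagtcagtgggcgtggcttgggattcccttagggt
Ndufb4 and Sdha each hold 3 copies of the NRF1 letters and Ndufa8 holds 1. Atp5b holds 2 GC boxes and no NRF1 letters, and Cox7a1 holds none of the 5 motifs.

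For 15 of the 83 genes, 5 of them among the 22, the gene span overlaps that of another gene, such as Ino80dos over Ndufs1 and Mir677 within Atp5b. Whether the counting used strand is not given in the sources used here, so reads of such partners cannot be told apart.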

How the data were processed

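RNA from 19 hepatocyte libraries was measured, 1 per mouse. The authors deposited 1 table of estimated counts per gene, written by HOMER's analyzeRepeats.pl over RefSeq exons of mm10, condensed to genes and left raw, per the file headers. The submitters' processing notes name STAR, HOMER and GRCm38. Alignment parameters, treatment of multiply mapped reads and strand setting are not given in the sources used here. The counts were multiples of 0.5 (29.2% not whole) and were rounded to whole counts, ties to even; the tests had been set for plain counts and were kept.

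Age (old against young, cull day as a covariate), cull day (age as a covariate) and their interaction were fitted across all genes with edgeR 4.0.16 in R 4.3.3: TMM scaling, filterByExpr by age with a minimum count of 10, the quasi-likelihood test, Benjamini-Hochberg adjustment over all 12269 genes tested and a threshold of 0.05. SE is the absolute log2 difference divided by the square root of F. Means of log2 CPM used a prior count of 2. Paralog ratios were compared by exact permutation within cull days (31752 relabellings). The scripts were tested on simulated counts. P-values set each difference against the spread between these mice.

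The genes, the lists and the tests were chosen with earlier results of these data known. Genes named singly were, in complexes I, III, IV and V, the 3 with the smallest p, the one with the largest p and the 2 with the highest level per kb. All Sdh genes, the members of the paralog pairs, genes called against the majority of their complex, and the 3 smallest p of each other list were added. Ndufa6, Ndufa7, Ndufa8, Atp5e, Atp5k, Atp5s, Cyc1, Ppargc1a, Nrf1, Tfam and the members of counts given by name were chosen after their values were seen. One complex I gene is not reported here by itself.

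Alternatives were DESeq2 1.42.0 and its size factors, library totals, other filters, limma-voom (limma 3.58.1), no cull day term, single days, the other-cell covariate, removal of a lowess length trend (span 0.5) and leaving out each mouse. Totals in the column names, fits without certain mice and the cull-day fits within 1 age or with the other-cell score were added after seeing the data. Transcript lengths and coordinates are those of the deposited table. Promoters come from RefSeq (GRCm38.p6).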

Additional observations from a re-analysis of the deposited data

Results flagged for a closer look

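In 3 of 66 groups checked, 1 mouse lay far from the rest of its age group, and in each it was old mouse 1187, at the low end. Chance flags about 1 in 20 such groups. Sdha stood at 8.39 log2 CPM in this mouse, against 8.72 to 9.04 in the other old mice. Uqcrc2 stood at 7.13, against 7.50 to 7.72. Atp5g3 stood at 7.86, against 8.17 to 8.40. This mouse also had the highest other-cell score, 5.70; the part of other cells in these values was not tested.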

How the results depend on the processing

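The 22 genes lower in old mice numbered 16 to 33 under 8 of the other settings. They numbered 11 with library totals alone, 38 with the length trend removed, 0 on the first cull day alone, 0 with the other-cell covariate, 41 without young mice 1184, 1186 and 1188, and 37 without these and old mouse 1187. Leaving out each mouse gave 11 (without old 1238, 14.3% against 13.2% of all genes) to 31 lower genes and 1 higher gene each time. The 1 higher gene, Cox7a1, was 0 on each cull day alone. Genes higher on the second day fell from 42 to 3 with the length trend removed, to 0 without the 3 young mice, to 5 in young mice alone and to 0 in old mice alone. They numbered 46 in DESeq2, 44 in limma-voom, 40 with library totals alone and 36 with no filter. The interaction called 1 gene lower in limma-voom. The cause of each shift was not tested.

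Of the other pathway lists, 68 genes were lower, and 10 on the first day alone, 38 on the second day alone and 17 with the other-cell covariate; leaving out each mouse gave 57 to 78. The 2 higher genes became 0 with no filter, with no cull day term, on each day alone, with the other-cell covariate, without the 3 young mice, and without these and old 1187; leaving out each mouse gave 0 to 3. The paralog ratio of Cox7a1 to Cox7a2 was 1.36 on the first and 1.04 on the second day, neither past the threshold, and 1.09 to 1.34 leaving out each mouse. The other ratios ranged over 0.24 to 0.42 (Ndufa4l2 to Ndufa4), 0.015 to 0.083 (Atp5g1 to Atp5g3) and 0.076 to 0.14 (Atp5g2 to Atp5g3).

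Signs turned for genes that did not pass the test by age. Ndufa3 was 0.040 with library totals, 0.011 with a mean of at least 1 CPM, 0.034 with the length trend removed, 0.011 with column totals, 0.17 on the first day and 0.16 with the other-cell covariate; leaving out each mouse gave -0.062 to 0.050. With the other-cell covariate Ndufa4 was 0.028, Sdhd 0.096, Uqcr11 0.11, Cox7a2l 0.017, Cox4i1 0.026, Atp5sl 0.21, Cox6b1 0.0047, Cox8a 0.019 and Ndufa4l2 -0.013. On the first day Uqcr11 was 0.057, Cox6a1 0.0030, Atp5sl 0.010 and Cox8a 0.033. With library totals Uqcr11 was 0.0017 and Cox7a2l 0.0026. Leaving out each mouse put Uqcr11 between -0.087 and 4.1e-05.

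No paired analysis was possible because the library numbers are not shared between ages. Depth limits Cox7a1, with at most 46 counts per library, and Ndufa4l2, with at most 19.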
